A study of Mus musculus with 3 samples.

Results

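The genes described here are the nuclear-encoded subunits of the mitochondrial respiratory chain and of ATP synthase, measured as RNA in single cells of the mouse intervertebral disc. They were chosen by symbol, that is every gene whose symbol starts with Nduf followed by a, b, c, s or v and a digit, the 4 Sdh genes, and every gene starting with Uqcr, with Cox followed by a digit from 4 to 8, or with Atp5. Of 87 matching symbols, 1 ending in -ps and 1 second identifier of Atp5o, listed in library 1 only and with 0 UMIs there, were left out. The remaining 85 genes were 37 of complex I, 4 of complex II, 8 of complex III, 18 of complex IV and 18 of complex V, of 30406 genes listed in all 3 libraries. A matching symbol in any library was enough, so Dmac2l, listed as Atp5s in library 1, entered with complex V. The complex was assigned by the start of the symbol, so Ndufa4 and Ndufa4l2 are counted with complex I throughout.

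The respiratory chain sits in the inner mitochondrial membrane. Complex I takes electrons from NADH and complex II from succinate, complex III passes them to cytochrome c, and complex IV, cytochrome c oxidase, hands them to oxygen, while complex V uses the resulting proton gradient to make ATP. Complexes I, III, IV and V are built from subunits of both genomes, with the core subunits of complexes I, III and IV partly made inside the mitochondrion, and complex II is wholly nuclear-encoded. Several subunits of complex IV come as pairs of a widespread and a tissue-restricted gene. The nucleus pulposus, the core of the disc, descends from the notochord and has no blood vessels of its own, so its cells live at low oxygen and are known for relying on glycolysis.

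Cells came from lumbar, thoracic and caudal discs of mice at postnatal day 30 with the genotype shh-cre:R26R-tdTomato, in which Cre made at the Shh locus switches on a red fluorescent reporter in cells that have expressed Shh and in their descendants. The mice had no treatment, and cells carrying the reporter were enriched by flow sorting after the discs had been cut free through the bony endplates and digested with collagenase. The 3 libraries are replicates of this 1 group, each pooled from animals of matched litters, so the spread between libraries is a spread between pools. No second genotype or condition was analysed here, and comparisons are between kinds of cells within the same libraries.

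The libraries listed 7430, 11767 and 11032 barcodes with 64695292, 145925353 and 137188648 UMIs (unique molecular identifiers, which count captured RNA molecules), and library 1 was the shallowest at a median of 4459.5 UMIs per barcode. After requiring 500 genes and at most 15% mitochondrial UMIs, 5732, 10786 and 10364 cells were kept. Libraries 1 and 2 shared 24 barcodes, libraries 1 and 3 shared 29, and libraries 2 and 3 shared 224; leaving those barcodes out gave counts of called members within 1.5 times of the reported ones in all 5 comparisons below. Most kept cells carried markers of blood and bone marrow, not of the disc. Cells gated as nucleus pulposus were 9.02%, 1.36% and 0.241% of the kept cells, and chondrocyte-gated cells 11.9%, 2.14% and 0.338%.

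Cells were assigned to classes by fixed marker lists, not by clustering. A nucleus pulposus-gated cell had UMIs of at least 3 of Krt8, Krt18, Krt19 and T, at 20 or more UMIs of the list per 10000, and a chondrocyte-gated cell had at least 4 of Col2a1, Col9a1, Col9a3, Matn3, Cnmd and Ucma at 80 or more. Cells that met more than 1 gate (741, 1342 and 1179) or none (719, 741 and 649) were left out. All 4 nucleus pulposus markers had UMIs in the gated cells of each library, and the chondrocyte list stood at 21.7 and 17.7 UMIs per 10000 in nucleus pulposus-gated cells rich in mitochondrial RNA in libraries 1 and 2, against 396 to 540 in chondrocyte-gated cells. In the same nucleus pulposus-gated cells the annulus list stood at 17.4 and 13.7. The mural list (Rgs5, Kcnj8, Myh11, Acta2 and Pdgfrb) stood at 6.76 and 12.3 in them. In nucleus pulposus-gated cells poor in mitochondrial RNA it stood at 11.8 and 22.2, from 2 and 1 of its 5 genes. These lists set the gates, so their values describe the classes and do not test their identity. Levels are UMIs per 10000 nuclear-encoded UMIs of the class, summed over its cells in a library, and are read only where a class had at least 20 cells in that library. The 3′ counts are not scaled by length, so levels are compared between classes for the same gene or sum and not between genes.

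Short stretches of promoter show the sequence that several of these genes share. Nuclear respiratory factor 1 (NRF1) is a transcription factor known to bind a palindromic site in promoters of respiratory genes, and YY1 is another factor with known sites at such promoters. Of the 85 genes, 68 had an entry in the RefSeq promoter table of GRCm38.p6, which gives 250 bases before and 50 after a start. The NRF1 core GCATGCGC, on either strand, was found in 10 of the 68 (14.7%), against 824 of 27025 genes with an entry (3.05%). The YY1 core AAGATGGC, on either strand, was found in 9 of the 68 (13.2%) against 3.19% of all genes, and the ETS core CCGGAAGT in 5 (7.35%) against 4.31%. The hypoxia response core ACGTG was in 17 (25.0%) against 21.8%. No motif searched contains another. A match describes the letters and is no evidence of binding, which was not measured. The stretches below, each 30 bases on the gene's own strand with the NRF1 core or its reverse complement in capitals, are those of Ndufa8 and Uqcr11, which were higher in nucleus pulposus-gated than in chondrocyte-gated cells, of Atp5g2, which moved in all 3 blood lineages and was also higher in the nucleus pulposus, and of Sdhb and Cox6a1, of which neither was called in the nucleus pulposus comparison. Neither Uqcr11 nor Atp5g2 was called against chondrocyte-gated cells when only nucleus pulposus-gated cells rich in mitochondrial RNA were used. The stretches lie at chr2:36049328-36049357 on the minus strand, chr10:80406807-80406836 on the minus strand, chr15:102671071-102671100 on the minus strand, chr4:140961206-140961235 on the plus strand and chr5:115349102-115349131 on the minus strand.
Ndufa8: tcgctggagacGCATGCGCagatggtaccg
Uqcr11: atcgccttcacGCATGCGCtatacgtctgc
Atp5g2: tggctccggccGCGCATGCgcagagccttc
Sdhb: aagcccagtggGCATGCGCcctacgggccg
Cox6a1: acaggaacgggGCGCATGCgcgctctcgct

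The YY1 core lay 22 to 38 bases after the start in 8 of its 9 promoters, with Atp5j the exception at 88 bases before it. All 9 matches read AAGATGGC on the gene's own strand, and these letters hold ATG, the start codon. Whether a match marks the start of translation was not tested. The stretches of Ndufb8 (chr19:44555393-44555422, minus strand) and Ndufa9 (chr6:126849097-126849126, minus strand) are shown with the YY1 core in capitals, the first for a gene higher in the nucleus pulposus and both for genes lower in the later cells of all 3 blood lineages.
Ndufb8: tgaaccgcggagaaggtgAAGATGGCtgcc
Ndufa9: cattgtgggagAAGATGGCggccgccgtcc

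The summed level of the 85 genes differed between some classes by more than the spread between libraries. Other classes overlapped, such as marrow stromal, endothelial and loose fibroblast-gated cells. Osteoclast-gated cells, the large bone-resorbing cells, stood highest, at 754 and 788 UMIs per 10000 in libraries 2 and 3, where they numbered 26 and 55. Early erythroid cells followed at 388, 402 and 416 in libraries 1, 2 and 3. Mature neutrophils stood lowest, at 71.8, 84.8 and 82.2, and did not overlap with any other class in any library. Chondrocyte-gated cells had 202, 200 and 219, a range that overlapped with that of annulus-gated cells at 194, 183 and 207. Nucleus pulposus-gated cells rich in mitochondrial RNA had 281 and 265 in libraries 1 and 2, above every chondrocyte value, and those poor in mitochondrial RNA had 366 and 353. In library 3 these last classes held only 9 and 16 cells, with levels of 316 and 333. The nucleus pulposus classes thus lay between the macrophage-gated (231 to 255) and early erythroid cells in the order of levels, and the cells rich in mitochondrial RNA overlapped in level with small B-lineage cells (221 to 268).

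**Figure D1:**
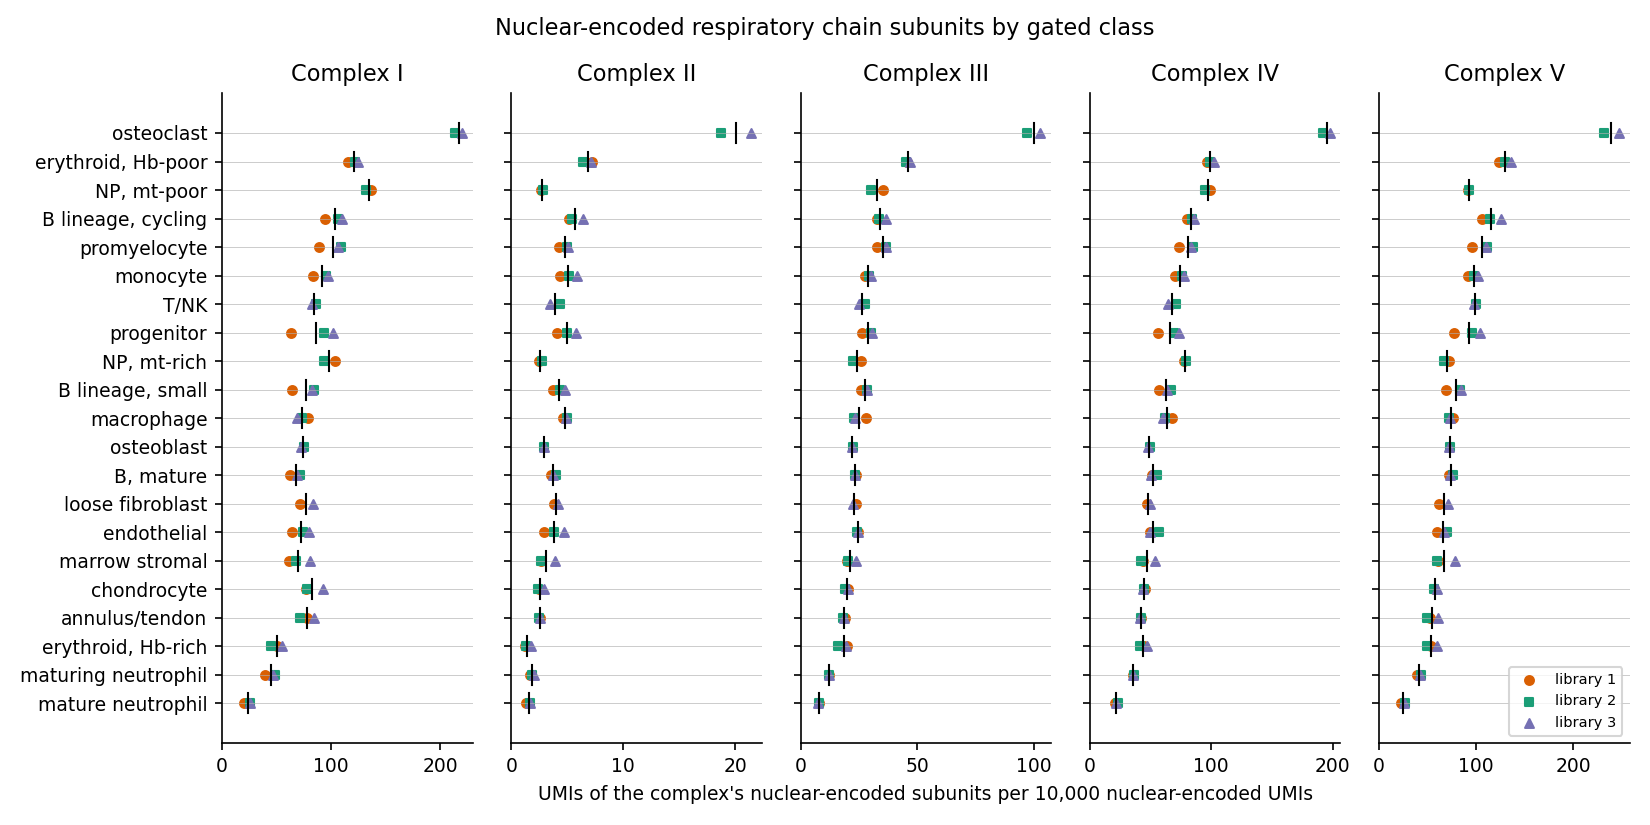
Summed UMIs of the subunits of each complex per 10000 nuclear-encoded UMIs, by cell class; each point is a library with at least 20 cells of the class, the black tick is the mean, and classes are ordered by the level of all 85 genes. Osteoclast-gated cells stand apart at a mean of 771 for all members and mature neutrophils lie lowest at a mean of 79.6.

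Among the complexes, complex IV differed most between the disc classes, with 77.9 and 78.8 UMIs per 10000 in nucleus pulposus-gated cells rich in mitochondrial RNA against 45.2, 44.6 and 43.5 in chondrocyte-gated cells. Complex I, with Ndufa4 and Ndufa4l2 counted in it by symbol, stood at 103 and 93.2 against 77.3, 77.8 and 92.3, and the values nearly met. Complex II did not separate them, at 2.5 and 2.7 against 2.5, 2.4 and 2.9. Ndufa4l2 and Cox4i2 carried part of these differences. Without Ndufa4l2 and Cox4i2, the level of all members was 220 ± 12.8 (SD, n = 2 libraries) against 181 ± 3.7 (SD, n = 3), complex IV without Cox4i2 stood at 53.2 against 41.0, and complex I without Ndufa4l2 at 70.9 against 60.5. With 2 libraries against 3, an exact two-sided permutation test that ignores shared libraries cannot go below 0.2, and with 3 against 3 not below 0.1. Keeping the libraries paired leaves fewer arrangements, so sums carry no test.

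Over 21 classes with 20 cells in at least 2 libraries, 72 of the 85 genes had their highest mean level in osteoclast-gated cells, with a highest level of 3.60 times the median over classes as the median of these genes (range 1.76 to 20.5). The lowest class was the mature neutrophil for 65 of the 85. How many of all genes have the same highest or lowest class was not counted. These counts therefore describe the members and do not set them apart from other genes. The 6 genes highest in nucleus pulposus-gated cells poor in mitochondrial RNA were Atp5g2, Cox4i2, Cox8b, Ndufa4l2, Ndufa7 and Ndufa8. Among these 21 classes, Cox6a2 and Cox7a2l were highest in small B-lineage cells, Cox6b2 and Dmac2l in early erythroid cells, and Ndufa11 in annulus-gated cells. Plasmacytoid dendritic cells, which held more Cox6a2 as given below, reached 20 cells in library 2 only and are not in this order. Cox7b2 and Cox8c had 4 and 11 UMIs in all kept cells together, and no order was read for them.

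The 13 protein genes of mitochondrial DNA were counted in the same cells. Chondrocyte-gated cells had 360, 357 and 304 of these UMIs per 10000 of all UMIs, and 1.85, 1.85 and 1.44 of them for each UMI of the 85 nuclear genes. Nucleus pulposus-gated cells fell into cells with ordinary and cells with almost no mitochondrial RNA, divided at 0.5% of UMIs. Those above the line had 304 and 324 per 10000 in libraries 1 and 2 and 1.12 and 1.27 per nuclear-encoded member UMI, below the chondrocyte ratio of the same library. Those under the line had 5.99 and 2.08 per 10000, and only 0.0164 and 0.00589 per member UMI, although their nuclear-encoded subunits were not low. Low mitochondrial values under the line follow from the split itself, which used the same genes. In library 2 they were low in every complex, with 5 UMIs of the complex I genes, 1 of mt-Cytb, 11 of the complex IV genes and 9 of the complex V genes in 30 cells.

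**Figure D2:**
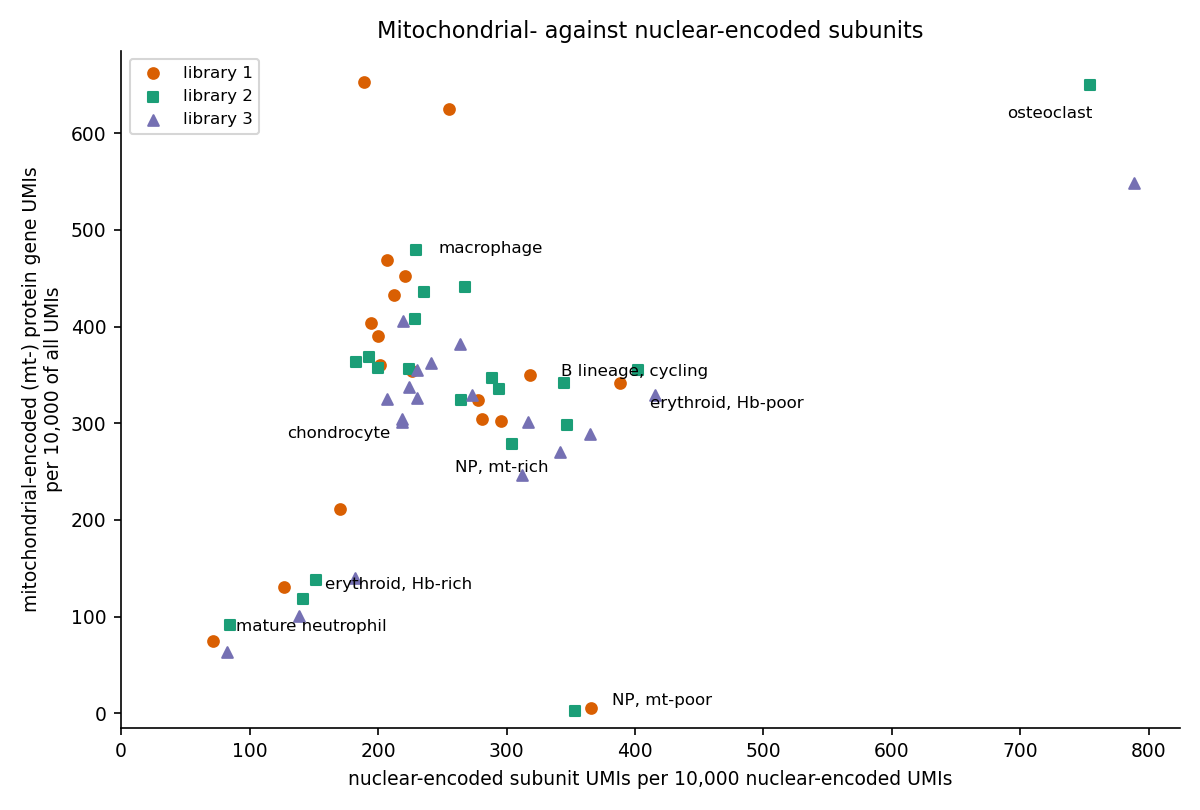
UMIs of the 13 mitochondrially encoded protein genes per 10000 of all UMIs against UMIs of the 85 nuclear-encoded subunits per 10000 nuclear-encoded UMIs, with 1 point per class and library. Nucleus pulposus-gated cells poor in mitochondrial RNA, selected for this, lie at the bottom, at 5.99 and 2.08 on the vertical axis, beside a nuclear-encoded level of 366 and 353.

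Elsewhere the 2 genomes' RNA did not keep to 1 ratio. Small B-lineage cells, which carried no UMI of the cell cycle list, had 2.14, 1.72 and 1.5 mitochondrial UMIs per member UMI, and cycling B-lineage cells 1.14, 1.03 and 0.815. Mature neutrophils were low on both sides, at 74.3, 91.5 and 63.8 mitochondrial UMIs per 10000, and their ratio of 1.04, 1.09 and 0.782 overlapped with that of promyelocytes at 1.06, 0.884 and 0.814. Within erythroid cells the mitochondrial complex IV genes kept a ratio of 3.05, 2.17 and 1.82 in haemoglobin-rich cells against 1.79, 1.78 and 1.5 in early ones. The ratio of the complex I genes went the other way, 0.334, 0.206 and 0.205 against 0.483, 0.469 and 0.445. Over all 13 genes, library 3 had the lowest ratio in the chondrocyte, B-lineage, neutrophil and erythroid classes named here.

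Nucleus pulposus-gated cells were compared with chondrocyte-gated cells to show how the inner disc cells differ from cartilage cells of the same pools. Of 80 members with enough counts to test, 12 were higher and 1 was lower at an adjusted p under 0.05 in the quasi-likelihood test of edgeR, with the library as replicate block and p-values adjusted by the method of Benjamini and Hochberg over all 9622 genes tested. That is 15% higher and 1.25% lower, against 13% and 16.9% of all genes tested (29.9% in either direction), so the share higher was near the background and the share lower was below it. The median log2 fold change was 0.39 over the members and -0.10 over all genes. The 12 were 6 of complex I, 0 of complex II, 1 of complex III, 4 of 13 tested in complex IV and 1 of complex V. The remaining 67 tested members did not pass, and 5 were not tested for low counts (Cox6a2, Cox7a1, Cox7b2, Cox8b and Cox8c).

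Cox4i2 showed the widest difference. It encodes the alternative form of complex IV subunit 4, best known from lung and for its induction at low oxygen, and lies at chr2:152754173-152765037 of mm10. Its level was 22.5 and 27.9 UMIs per 10000 in nucleus pulposus-gated cells rich in mitochondrial RNA in libraries 1 and 2 and 27.8 and 31.4 in those poor in it, against 3.66, 3.5 and 3.23 in chondrocyte-gated cells. Every nucleus pulposus value was several times the highest chondrocyte value, and annulus-gated cells were at 1.78, 2.48 and 3.86. The log2 fold change of all nucleus pulposus-gated against chondrocyte-gated cells was 2.92 ± 0.38 (SE), with an edgeR adjusted p of 5.1e-13.

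The widespread partner, Cox4i1, differed less and was not among the called genes. It stood at 7.05 and 5.92 UMIs per 10000 in nucleus pulposus-gated cells rich in mitochondrial RNA against 4.83, 4.45 and 4.44 in chondrocyte-gated cells. Cox4i2 therefore made up 76.2% and 82.5% of the UMIs of the pair in nucleus pulposus-gated cells rich in mitochondrial RNA and 77.4% and 81.0% in those poor in it, with exact 95% binomial intervals from 74.5% to 84.4% in all. In chondrocyte-gated cells the share was 43.1%, 44.0% and 42.1%, in annulus-gated cells 26.7%, 36.5% and 46.6%, and in osteoblast-gated cells 2.35% and 2.65%. The nucleus pulposus shares overlapped with no other class that had at least 20 cells in a library. Mural-gated cells numbered only 1 and 4 in libraries 2 and 3, so their share was not read. Intervals cover counting error only. Cox4i1 overlaps Emc8 on the other strand and Gm20388 on the same strand, and use of strand in counting is not given in the sources used here, so their reads cannot be told apart.

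The 4 complex I genes with the widest increases were Ndufa8, Ndufb7, Ndufa7 and Ndufb8. Ndufa8, an accessory subunit at the intermembrane side of complex I, was at 5.18, 4.25 and 5.24 UMIs per 10000 in all nucleus pulposus-gated cells against 1.55, 1.35 and 1.59, with no overlap and a log2 fold change of 1.73 ± 0.31 (SE). Ndufb7, another intermembrane-side subunit, was at 3.10, 2.40 and 3.40 against 1.40, 1.26 and 1.15. Ndufa7 was at 6.10, 4.88 and 7.23 against 2.61, 2.81 and 2.80. Neither Ndufb7 nor Ndufa7 overlapped between the classes, and their log2 fold changes were 1.19 and 1.14. Ndufb8 had a log2 fold change of 1.01, just under that of Atp5g2 in complex V, with 2.75, 2.40 and 2.98 against 1.41, 1.45 and 1.13, and was named after its values were seen. The Ndufa7 call was lost without library 3 (edgeR adjusted p 0.080, with a range from 0.00014 to 0.089 over all alternatives tried).

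Cox7a2l, known as a factor that joins complex III to complex IV in supercomplexes, was at 4.20, 2.67 and 2.69 UMIs per 10000 in nucleus pulposus-gated cells against 1.52, 1.43 and 0.92 in chondrocyte-gated cells. Its ranges did not overlap, and the log2 fold change was 1.3 ± 0.30 (SE), with an edgeR adjusted p of 0.00013. Of the 3 genes for the identical c subunit of the ATP synthase rotor, only Atp5g2 was called, at 12.4, 9.89 and 12.05 against 5.72, 5.60 and 5.74 (log2 fold change 1.02). Atp5g1 and Atp5g3 had log2 fold changes of -0.06 and 0.16. The 4 Sdh genes of complex II, the link between the chain and the citric acid cycle, lay between -0.18 and 0.38 and none was called.

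Ndufa4 was the gene called lower. It encodes a subunit that was once assigned to complex I and is now known as part of complex IV, and it stood at 1.64, 1.49 and 1.84 UMIs per 10000 in nucleus pulposus-gated cells against 4.45, 3.46 and 3.46 in chondrocyte-gated cells, a log2 fold change of -1.20 ± 0.31 (SE) with an edgeR adjusted p of 0.00064. Its paralogue Ndufa4l2, at chr10:127514967-127517154 and known as a target of hypoxia-inducible factor, was at 29.5 and 25.5 in nucleus pulposus-gated cells rich in mitochondrial RNA and 43.6 and 46.5 in those poor in it, against 16.9, 18.9 and 30.1 in chondrocyte-gated cells. The chondrocyte value of library 3, from 35 cells, lay inside the nucleus pulposus range, and the log2 fold change of 0.59 was not called (edgeR adjusted p 0.27). The share of Ndufa4l2 in the pair was 93.9% and 94.4% in cells rich in mitochondrial RNA, 96.8% and 97.7% in those poor in it, and 79.1%, 84.5% and 89.7% in chondrocyte-gated cells. Ndufa4l2 overlaps Shmt2 on the other strand.

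**Figure D3:**
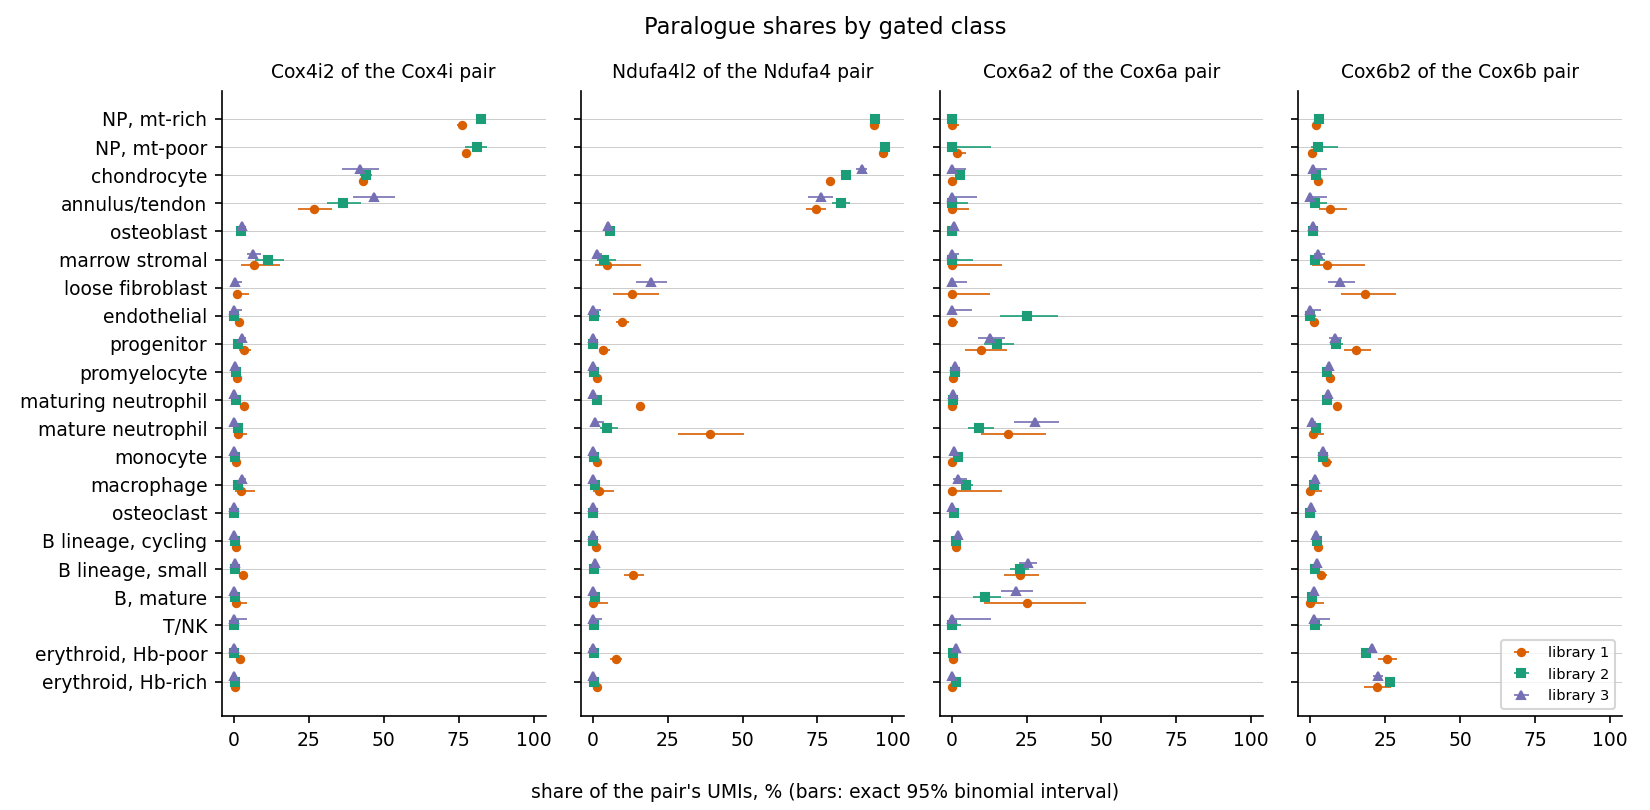
Share of the tissue-restricted paralogue in the UMIs of its pair, in percent, for Cox4i2, Ndufa4l2, Cox6a2 and Cox6b2 by cell class; points are libraries with at least 20 cells and bars are exact 95% binomial intervals. Cox4i2 reaches 76.2% to 82.5% in nucleus pulposus-gated cells, and Cox6b2 stays between 18.7% and 26.5% in erythroid cells. Plasmacytoid dendritic cells, where Cox6a2 had 89.6% of its pair in library 2, are not drawn.

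The comparison rests partly on cells poor in mitochondrial RNA, which were most of the nucleus pulposus-gated cells of library 1 (418 of 517). With the cells rich in it alone, in libraries 1 and 2, 6 members were higher and 1 lower, against 13.2% and 13.2% of all genes (26.4% in either direction). The 6 were 4 of 37 tested in complex I and 2 of 13 in complex IV. Complex III had 0 of 8 higher and complex V 0 of 18, so Uqcr11 and Atp5g2 were not called there. Cox4i2 then had a log2 fold change of 2.79 and the median over members was 0.21, against -0.02 over all genes. Without library 3, 5 of 82 members were higher and 1 lower (6.10% and 1.22%), against 12.99% and 15.2% of all genes in that fit.

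Nucleus pulposus-gated cells poor in mitochondrial RNA were then compared with the other nucleus pulposus-gated cells in libraries 1 and 2. The split used mitochondrial genes, which were left out of the test. Their nuclear-encoded subunits stood higher, not lower, with 366 and 353 UMIs per 10000 for all members against 281 and 265. In edgeR 46 of 81 tested members were higher and 0 lower (56.8% and 0%), against 8.05% and 14.2% of the 7487 genes tested (22.2% in either direction), and the median log2 fold change was 0.63 over the members and -0.09 over all genes. At an unadjusted p under 0.05, 52 members differed. The 46 were 20 of 37 in complex I, 0 of 4 in complex II, 4 of 8 in complex III, 9 of 14 in complex IV and 13 of 18 in complex V.

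The named genes were Cox8b, Cox7a2l, Ndufa4l2, Ndufv3 and Ndufb7. Cox8b, the heart and muscle form of complex IV subunit 8, had 96 and 9 UMIs in the cells poor in mitochondrial RNA against 10 and 2 in the others, which is 6.08% and 7.69% of the UMIs of Cox8b and Cox8a against 1.45% and 0.214%. Its log2 fold change was 3.64 ± 0.50 (SE), from few molecules. In library 3, Cox8b had 0 UMIs in either class, beside 32 and 41 of Cox8a, which leaves exact 95% upper bounds of 10.9% and 8.60% for its share. Cox7a2l was at 5.11 and 4.56 UMIs per 10000 against 2.80 and 2.48, without overlap and with a log2 fold change of 1.14 ± 0.22 (SE). Ndufa4l2 (0.98), Ndufv3 (0.92), a small subunit of the NADH-binding arm, and Ndufb7 (0.90) followed, all 3 higher in both libraries. None of the 4 Sdh genes was called. Sdhc had a log2 fold change of 0.98 (edgeR adjusted p 0.084), Sdhd 0.42, Sdhb 0.39 and Sdha -0.08, and the first 3 were higher in both libraries.

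**Figure D4:**
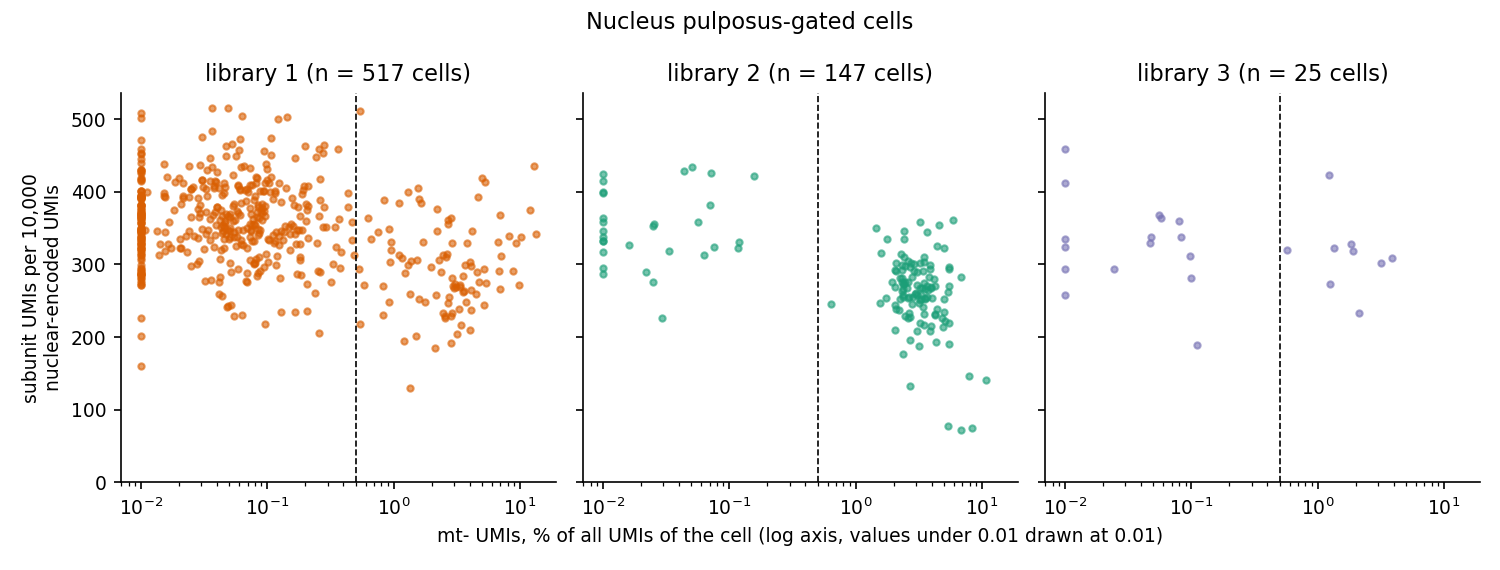
Each nucleus pulposus-gated cell of libraries 1, 2 and 3, by its mitochondrial share of UMIs and its UMIs of the 85 nuclear-encoded genes per 10000; the dashed line marks 0.5%. Cells left of the line have medians of 360, 342 and 333 on the subunit axis, and those right of it 294, 265 and 318.

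The count of 46 depended on the model. DESeq2 called 3 of 81 members higher (3.70%), against 1.51% of all genes. The fit with no replicate block also called 3 higher, against 1.78% of all genes, and the fit scaled by library totals alone called 11 (13.6%), against 3.43%. The fit with at least 5 cells per class, which adds library 3, called 20 of 78 (25.6%), against 6.56% of all genes called higher there and 20.5% lower (27.1% in either direction). In that last fit, leaving out library 1 or library 2 gave 0 calls among the members in edgeR, against 6.32% and 2.55% of all genes higher and 17.7% and 14.1% lower, with 2 of 66 and 8 of 80 members at an unadjusted p under 0.05 and medians of 0.18 and 0.36. The median over members was above 0 in each of these fits. Other RNA moved with the split. Malat1, a long RNA kept in the nucleus, was at 2.82 and 0.80 UMIs per 10000 against 191 and 292, cytosolic ribosomal protein RNA made up 35.1% and 35.3% of nuclear-encoded UMIs against 23.1% and 20.01%, and cells had medians of 2531 and 3284 nuclear-encoded UMIs against 7249 and 10244. In the same test 78 of 80 cytosolic ribosome genes were higher. The summed chondrocyte list was at 1.89 and 0.96 against 21.7 and 17.7, and their part in the result was not tested. In library 1, 40 of 517 cells lay between 0.25% and 1.0% mitochondrial UMIs, in libraries 2 and 3 only 1 each.

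Mature neutrophils held less respiratory chain RNA than promyelocytes, their early precursors. Promyelocytes were gated on Elane, Mpo, Prtn3 and Ctsg and mature cells on Cxcr2, Csf3r, Retnlg, Il1b and Mmp8. The summed level was 71.8, 84.8 and 82.2 UMIs per 10000 in mature cells against 296, 347 and 342 in promyelocytes, without overlap. Of 81 tested members, 64 were lower (79.0%) and 2 higher (2.47%) in edgeR, against 38.2% and 31.9% of the 10155 genes tested (70.1% in either direction). The median log2 fold change was -1.23 over members and -0.35 over all genes. By complex, 28 of 37, 3 of 4, 7 of 8, 10 of 14 and 16 of 18 members of complexes I to V were lower. Scaled by library totals alone, 78 members were lower and 1 higher, against 55.6% and 19.9% of all genes, with medians of -2.22 over members and -1.34 over all genes.

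Atp5g1, a c subunit gene of the ATP synthase rotor, differed most. It was at 8.01, 9.81 and 9.16 UMIs per 10000 in promyelocytes and 0.34, 0.36 and 0.28 in mature neutrophils, a log2 fold change of -3.79 ± 0.23 (SE) with an edgeR adjusted p of 5.7e-08. Ndufa5, a matrix-arm subunit of complex I, went from 1.71, 2.64 and 2.49 to 0.12, 0.16 and 0.08 (log2 fold change -3.33), and Ndufc2 from 2.75, 3.11 and 3.11 to 0.14, 0.25 and 0.14 (-3.12). None of these ranges overlapped. Dmac2l (-3.67) and Cox6b2 (-3.17) also fell, from low levels. Sdhb (-0.05) and Cox8a (-0.19) did not pass, while Sdha (-0.84), Sdhc (-1.94) and Sdhd (-0.71) were lower.

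The 2 genes called higher were Cox6a2, the muscle form of complex IV subunit 6a, with 11, 17 and 41 UMIs in mature neutrophils (0.15, 0.09 and 0.24 per 10000), and Ndufa4l2. Cox6a2 was higher than in promyelocytes (0.01, 0.03 and 0.03) in all 3 libraries, with a log2 fold change of 3.72 ± 0.56 (SE). Cox6a2 overlaps Itgad on the other strand. Ndufa4l2 had 32, 10 and 1 UMIs in mature neutrophils, and its log2 fold change of 1.99 became 0.87 without library 1 (edgeR adjusted p 0.28, with a range from 0.00010 to 0.28 over all alternatives tried). Over 11 blood classes, Ndufa4l2 ranged up to 0.905 UMIs per 10000 in library 1, with a median of 0.141, up to 0.0543 in library 2 and up to 0.0405 in library 3. The libraries held nucleus pulposus-gated and chondrocyte-gated cells, the cells with the highest Ndufa4l2, in the same order, and their part in these counts was not tested.

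Other genes of the organelle mostly moved with the subunits in this lineage. Of assembly factors, 26 of 42 were lower and 1 higher, with Sco2, a copper carrier for complex IV, at -4.39. Of mitochondrial ribosome genes, 74 of 78 were lower, with Mrps18b at -5.34, and of citric acid cycle genes 9 of 13, with Fh1, fumarate hydratase, at -4.09. Regulators of mitochondrial biogenesis did not move with them. Of 6 tested, 3 were higher, among them Esrra (1.11) and Nrf1 (0.77), and 1 was lower, Pprc1 (-2.96). Atpif1, the inhibitor that stops ATP synthase from running backwards, was at 7.87, 10.1 and 9.55 UMIs per 10000 in promyelocytes and 0.94, 1.06 and 0.87 in mature neutrophils. Cytosolic ribosome genes were lower for 78 of 81, and cells had medians of 2490, 3507 and 3344 nuclear-encoded UMIs against 27472, 36042 and 32581. The part of this depth difference in the result was not tested.

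B-lineage cells without any UMI of the cell cycle list and with fewer than 2 markers of mature B cells, called small here, were compared with B-lineage cells carrying at least 3 cell cycle genes. Small cells had 221, 268 and 264 UMIs per 10000 of all members against 318, 345 and 365 in cycling cells of the same libraries. Of 82 tested members, 72 were lower (87.8%) and 5 higher (6.10%) in edgeR, against 32.2% and 35.0% of the 9944 genes tested (67.2% in either direction). The median log2 fold change was -0.68 over the members and 0.07 over all genes, and complexes I to V had 32 of 37, 4 of 4, 7 of 8, 12 of 15 and 17 of 18 members lower. Scaled by library totals alone, 60 were lower and 6 higher (73.2% and 7.32%), against 25.2% and 45.4% of all genes. With no replicate block, 47 were lower and 2 higher (57.3% and 2.44%), against 20.4% and 19.6% of all genes.

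Atp5g1 was again the member most reduced, from 5.82, 5.86 and 7.79 UMIs per 10000 in cycling cells to 2.77, 2.43 and 2.80 in small cells, a log2 fold change of -1.5 ± 0.11 (SE). Ndufa5 (-1.45), Cox5a, a matrix-side subunit of complex IV (-1.33), Uqcr11, a small complex III subunit (-1.31), and Ndufa4 (-1.25) followed. Ndufa4 stood at 10.1, 10.4 and 10.1 in cycling cells and 3.77, 5.71 and 5.59 in small cells, without overlap. All 4 Sdh genes were lower, by -0.50 for Sdha, -0.58 for Sdhb, -0.69 for Sdhc and -0.72 for Sdhd. All 3 c subunit genes were lower as well, with Atp5g2 at -1.12 and Atp5g3 at -1.19.

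Against this direction, Cox6a2 was at 0.47, 0.57 and 0.65 UMIs per 10000 in small cells and 0.05, 0.04 and 0.06 in cycling cells, a log2 fold change of 3.29 ± 0.16 (SE) with an edgeR adjusted p of 2.4e-15. It made up 22.9%, 22.7% and 25.5% of the UMIs of Cox6a2 and Cox6a1 in small cells and 1.51%, 1.31% and 2.08% in cycling cells. Cox7a2l rose as well, from 3.17, 2.98 and 2.23 to 5.92, 6.83 and 4.83, a log2 fold change of 0.86 ± 0.10 (SE). Both genes separated the stages in every library. Uqcrh, the hinge subunit of complex III, had a log2 fold change of 0.28, a call that was lost without library 2 (0.24), without library 3 (0.23), with no filter on low counts (0.13) and with no replicate block (0.28). Ndufa4l2 (2.04) and Cox4i2 (1.39) were called with 13.6%, 0.494% and 0.720% and 3.00%, 0.472% and 0.365% of the UMIs of their pairs in small cells. Both stood highest in library 1, and without it Cox4i2 had 0.83 (edgeR adjusted p 0.14, with a range from 0.00055 to 0.14 over all alternatives tried). The call of Ndufa4l2 was lost with no replicate block (edgeR adjusted p 0.16, with a range from 1.9e-11 to 0.16).

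Mitochondrial ribosome genes were lower for 68 of 78, assembly factors for 22 of 43 with 5 higher, and citric acid cycle genes for 9 of 13. Of 6 biogenesis regulators tested, 3 were lower and 1 was higher, Esrra at 1.44. Atpif1 had a log2 fold change of -0.87. Cytosolic ribosome genes were lower for 71 of 81 and Malat1 was higher by 2.21 on the log2 scale. Small cells had medians of 1997, 2406 and 2004 nuclear-encoded UMIs against 7921, 9714 and 10184. Absence of cell cycle UMIs is itself easier to meet in a shallow cell, and the part of depth in the result was not tested.

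Erythroid cells with over 20% haemoglobin UMIs were compared with those under 10%. In the rich cells haemoglobin took 44.7%, 48.6% and 45.4% of nuclear-encoded UMIs, which lowers the level per 10000 of other genes by construction. The level of all members was 170, 152 and 182 UMIs per 10000 against 388, 402 and 416 in early cells, the latter from 21 cells in library 1. In edgeR, whose scaling factors set the bulk of genes near equal, 36 of 80 tested members were lower (45.0%) and 7 higher (8.75%), against 38.1% and 28.7% of the 9253 genes tested (66.8% in either direction). The median log2 fold change was -0.29 over members and -0.23 over all genes, close to each other. Scaled by library totals alone, 78 of 80 were lower (97.5%) and 0 higher, against 68.5% and 10.7% of all genes, and the median over all genes was -1.28.

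The complexes differed in how many members were called lower, with 20 of 37 in complex I, 4 of 4 in complex II, 2 of 8 in complex III, 3 of 13 in complex IV and 7 of 18 in complex V. This difference between complexes was not tested. Sdhd went from 2.65, 2.49 and 2.04 UMIs per 10000 in early cells to 0.34, 0.39 and 0.41 in rich cells, a log2 fold change of -1.54 ± 0.16 (SE). Sdha (-0.88), Sdhb (-1.03) and Sdhc (-1.22) were lower as well. No Sdh gene overlapped between the stages in UMIs per 10000, a scale that haemoglobin lowers in the rich cells. How many of all genes did not overlap on that scale was not counted. Atp5g2 fell most, from 9.76, 7.63 and 8.72 to 0.63, 0.49 and 0.69 (-2.81 ± 0.15, SE, edgeR adjusted p 5.1e-10), and Atp5g1 went from 12.997, 11.8 and 12.6 to 1.39, 0.97 and 1.65 (-2.22). The third c subunit gene, Atp5g3, went from 6.03, 5.21 and 4.92 to 1.86, 1.32 and 1.62 (-0.72). Ndufb5, a membrane-arm subunit of complex I, fell from 4.56, 3.62 and 3.84 to 0.46, 0.29 and 0.48 (-2.27), and Ndufc2 had -1.42.

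The 5 widest increases were Dmac2l (0.82), Ndufb7 (0.65), Atp5h (0.65), Ndufb11 (0.55) and Ndufb9 (0.48). These directions hold under the scaling factors only. Atp5h, a stalk subunit of ATP synthase, was at 8.96, 7.18 and 8.30 UMIs per 10000 in rich cells against 10.7, 10.9 and 10.3 in early cells, and scaled by library totals alone all 5 turned negative, from -0.24 to -0.56. The call of Dmac2l was also lost without library 2 (edgeR adjusted p 0.055, with a range from 2.2e-06 to 0.37 over all alternatives tried), and that of Ndufb9 with no replicate block (0.055, with a range from 0.00090 to 0.055). Atpif1 differed from the subunits it inhibits. It was at 31.7, 32.2 and 30.4 in rich cells against 22.0, 24.0 and 23.0 in early cells, higher on both scales, with a log2 fold change of 1.49. Assembly factors were lower for 33 of 42, with Sco2 at -4.93, and mitochondrial ribosome genes for 67 of 78. Of 6 biogenesis regulators tested, 3 were lower and 2 higher, with Nrf1 at 1.38.

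**Figure D5:**
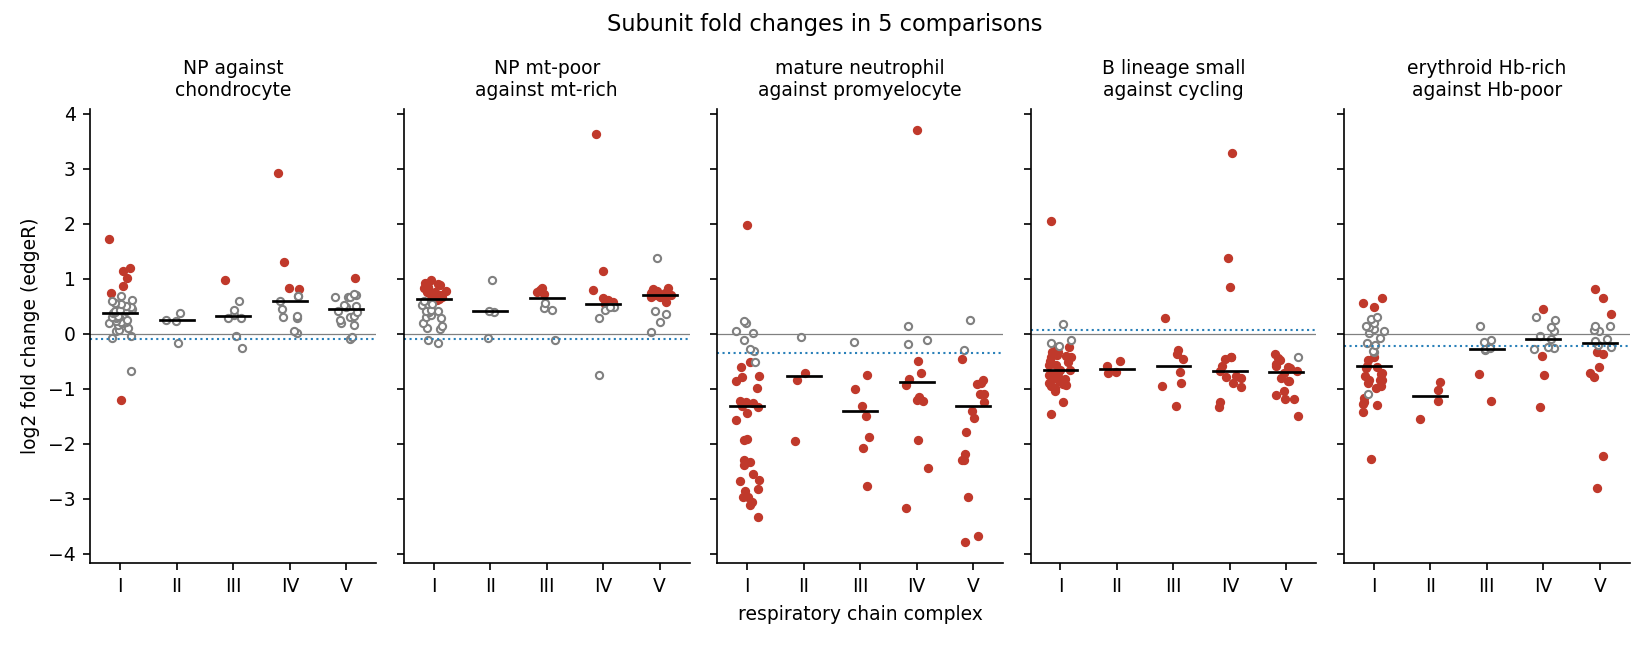
Log2 fold changes of the tested members by complex in the 5 comparisons; red points were called at an adjusted p under 0.05, open grey points were not, the black bar is the median of the complex and the blue dotted line is the median of all genes tested. The members' median is -1.23 in neutrophils and -0.68 in B-lineage cells, and -0.29 in erythroid cells, where the line for all genes lies at -0.23.

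The 3 blood comparisons used separate cells of the same 3 libraries. Of 80 members tested in all 3, 31 were called lower in each (38.75%) and 0 higher in each. Of 8384 genes tested in all 3, 15.7% were lower in each and 7.65% higher in each. The 31 held all 3 c subunit genes, Sdha, Sdhc and Sdhd, Cox5a, Cox7b and Cox7c of complex IV, Uqcr11 and Uqcrc2 of complex III, 4 other complex V genes and 16 of complex I, among them Ndufa5, Ndufa9 and Ndufb8. Atp5h, Atp5j2 and Cox6a1 were lower in the neutrophil and B-lineage comparisons and higher in the erythroid one, where the sign of all 3 turned with library totals. Cox7a2l was called lower in none of the 3, with log2 fold changes of 0.14 in neutrophils, 0.86 in B-lineage cells and -0.26 in erythroid cells.

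Of the remaining restricted paralogues, Cox6a2 and Cox6b2 had UMIs in several classes. Plasmacytoid dendritic cells, a rare interferon-producing cell of which 18, 37 and 17 were gated, had 224, 379 and 143 UMIs of Cox6a2, or 25.6, 18.6 and 18.9 UMIs per 10000, and only library 2 reached 20 cells. Cox6a2 made up 89.6% of its pair there, with an exact 95% binomial interval from 86.3% to 92.3%. The share was 22.7% to 25.5% in small B-lineage cells, 11.2% to 25.0% in cells gated as mature B cells, 9.14% to 27.9% in mature neutrophils and 9.88% to 15.3% in progenitors, and at most 2.08% in cycling B-lineage cells. Cox6b2, the testis form of subunit 6b, was at 2.90, 2.09 and 2.52 UMIs per 10000 in early erythroid cells and 1.00, 1.19 and 1.21 in haemoglobin-rich ones, and its share of the pair was 18.7% to 25.7% in the first and 22.2% to 26.5% in the second. Loose fibroblast-gated cells had 18.2% and 9.78% in libraries 1 and 3, and progenitors 8.26% to 15.3%. The erythroid share overlapped between the stages, although the level was lower, and its log2 fold change of -0.05 was not called. Cox7a1, the heart and muscle form of subunit 7a, was highest in osteoclast-gated cells at 0.52 and 0.59 per 10000 in libraries 2 and 3, from 968 UMIs in all kept cells. Ndufa11 had its highest mean in annulus-gated cells at 4.81, 3.94 and 5.21, a range that held the osteoclast-gated values of 4.22 and 4.78 in libraries 2 and 3. Chondrocyte-gated cells had 2.79, 2.26 and 3.84, below the annulus value in each library.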

How the data were processed

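UMI counts deposited by the authors were used as whole numbers per gene and barcode, without normalization. Per the submitters' processing notes, Cell Ranger 3.0.2, Seurat 4 and mm10 were used, with no roles given, while per the file headers Cell Ranger was 3.0.1 for library 1 and 6.0.0 for libraries 2 and 3. Use of strand is not given in the sources used here. The members and lists were chosen with earlier results of these data known.

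Cells with at least 500 genes and at most 15% mitochondrial UMIs were gated by marker lists with pandas 2.3.3, scipy 1.17.1 and numpy 2.4.6 under Python 3.11.15. Doublets were not removed, apart from cells meeting more than 1 gate. Scrublet (scanpy 1.11.5) called 0.0174%, 4.67% and 3.74% of cells, too few in library 1 for it to have worked, and its calls served as an alternative. Counts were summed per library and class where both classes had at least 20 cells and tested with edgeR 4.0.16 in R 4.3.3 (filterByExpr, TMM scaling factors, quasi-likelihood test, mitochondrial genes left out, Benjamini-Hochberg adjustment over all genes tested, calls under 0.05). SE is the absolute log2 fold change over the square root of F. The library was the block, because the classes compared within a library share its animals. The p-values rest on a spread between pools that edgeR estimates in part from all genes tested. They do not measure each gene's own spread over 2 or 3 pools alone. The procedure was also run on simulated counts. These had the same dispersion for every gene and no difference between libraries beyond depth, so they are simpler than the real sums. Named genes were the 5 widest changes in each direction among called members with the same sign in every library, the paralogue pairs, Ndufa4, Cox7a2l, Atpif1 and the Atp5g and Sdh genes. Alternatives were DESeq2 1.42.0 (size factors or test), no filter, no block, each library left out, other mitochondrial limits and cuts, 1000 genes, 1 more marker, and haemoglobin, immunoglobulin and ribosomal genes left out. Chosen after seeing the data were library totals without scaling factors, shared barcodes left out, at least 5 cells, and nucleus pulposus cells rich in mitochondrial RNA alone. Positions are from GENCODE vM21 of mm10.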

Additional observations from a re-analysis of the deposited data

How the results depend on the processing

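Of 78 alternative counts of called members, 64 lay within 1.5 times the reported count. For nucleus pulposus against chondrocyte, reported as 13, the count was 6 with at least 1000 genes, 6 with 1 more marker, 7 with cells rich in mitochondrial RNA alone, 20 with library totals and no scaling factors, and 6 to 11 with a library left out, the lowest without library 3. For the split of nucleus pulposus cells, reported as 46, it was 3 in the DESeq2 test, 3 with no replicate block, 25 with no filter, 11 with library totals, 20 with at least 5 cells, and 0 to 46 when a library was left out of that last fit. Its fit with at least 1000 genes could not be made. Mature neutrophils, reported as 66, ranged from 57 to 70 with a library left out, small B cells, reported as 77, from 72 to 78, and haemoglobin-rich cells, reported as 43, from 36 to 45. With no replicate block, small B cells had 49. With library totals, haemoglobin-rich cells had 78, and there Dmac2l had -0.24, Ndufb7 -0.40, Atp5h -0.40, Ndufb11 -0.49 and Ndufb9 -0.56. The other named members kept their sign, with 549 values on the same side of the threshold as reported and 27 that lost the call. Leaving out haemoglobin, immunoglobulin and ribosomal protein genes raised the summed levels to 351 and 556 UMIs per 10000 in nucleus pulposus cells rich and poor in mitochondrial RNA, 248 in chondrocytes, 465 in promyelocytes, 1017 in osteoclasts, 489 and 340 in cycling and small B cells, and 624 and 383 in early and haemoglobin-rich erythroid cells. With at least 1000 genes, levels were 371 in nucleus pulposus cells poor in mitochondrial RNA and 184 in haemoglobin-rich cells, and with 1 more marker the Cox4i2 share of chondrocytes was 41.4%. The cause of each was not tested, beyond the genes or scaling removed by construction. Few nucleus pulposus cells in libraries 2 and 3 limit the disc comparisons.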
